A study of Mus musculus with 12 samples.

Results

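The immediate-early and heat shock genes are 35 genes chosen by name, 27 of immediate-early type and 8 heat shock genes. They were looked up among the 16971 genes of the deposited table, and all 35 were listed. The choice was made with earlier results of these data known, so shares set beside all genes describe the set and do not test it. Immediate-early genes are transcribed within minutes of a stimulus, without new protein synthesis, when kinase pathways activate transcription factors that are already bound near their promoters. Most encode short-lived transcription factors or proteins that limit the response. Heat shock genes encode chaperones that hold or refold other proteins, and heat shock factor HSF1 switches on their inducible members through heat shock elements when unfolded proteins accumulate. In liver, both sets are known to respond to injury, regeneration and cytokines, and both are also known to be induced while a tissue is being digested into single cells.

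GFP(+) cells were sorted by FACS from livers of Prom1CreERT2-nLacZ/+;Rosa26Lsl-GFP/+ mice of C57BL/6 strain background, of both sexes. The *Prom1* line was kept on C57BL/6N and the reporter line on C57BL/6J. In this line Cre is made under the control of the *Prom1* locus, so tamoxifen marks cells that express *Prom1* at that time, and their progeny, with GFP. Every mouse had received tamoxifen at 6 weeks of age, 7 days before surgery. Age at the sort thus rose with time after surgery, and its part in the results was not tested. The 3 day 0 libraries came from mice that the labels call sham operated, and the other libraries came from mice with 3 or 14 days of BDL, the tying off of the common bile duct so that bile cannot drain. The labels describe 6 BDL day 14 libraries, of which the table holds 4 beside 3 of day 0 and 3 of BDL day 3. By the paper's account, females outnumbered males at day 0, and males outnumbered females on BDL day 3 and BDL day 14. Sex thus differed along with time after BDL, and its part in the results was not tested. The livers of all groups were digested for 45 min with collagenase, pronase and DNase before the sort, and dead cells were gated out. No date of digestion or sort is given in the sources used here. Differences in handling between groups thus cannot be told apart from time after BDL, and the part of digestion in the results was not tested.

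The table gives 1 value per gene and group, the authors' mean of read counts normalized by the upper quartile method (in the text, the signal). It also gives the highest of the 10 libraries, unnamed, and the geometric mean over them, and it has no column for a single library. The authors' p-values were set aside, and no test between groups was run, since the libraries could not be compared one by one. The number of reads behind a library is unknown. Genes were kept where the signal summed over the libraries reached 10, which 12889 genes did, 33 of the 35 members among them. *Egr3* and *Nr4a2* stayed below it, at 0.67 and 0.89 at day 0, 0.69 and 0.63 on BDL day 3 and 0.46 and 0.82 on BDL day 14. A member was called higher or lower where the group means differed by more than 1.5-fold. Because the geometric mean over the libraries lies further below the group means the more the libraries of a group differ, it also gave an SD within groups on the log2 scale (the implied SD), averaged over the 3 groups with 7 degrees of freedom. Its median was 0.59 for the members kept and 0.58 for the genes kept.

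The sorted cells carried high signal of macrophage genes. The 8 macrophage markers summed to 5243 at day 0, 9232 on BDL day 3 and 14235 on BDL day 14. *Lyz2* made up 2280, 4560 and 11200 of this, and the other 7 summed to 2963, 4672 and 3035. All 8 cholangiocyte markers, of which 5 were kept, summed to 512, 201 and 827, and *Spp1* made up 459, 175 and 792 of this. Against day 0, all 5 kept were lower past 1.5-fold on BDL day 3. On BDL day 14, 3 were lower and 1, *Spp1*, was higher. *Prom1* itself was at 6.66, 0.96 and 1.76. The 6 Kupffer cell markers summed to 9814, 21889 and 1341. The sums of 8 hepatocyte markers (3093, 860 and 360), 8 stellate and mural markers (750, 19.7 and 76.0), 6 B cell markers (337, 104 and 61.0), 6 T and NK cell markers (85.8, 34.2 and 9.37) and 6 neutrophil markers (519, 253 and 167) were highest at day 0, as were most members described here. The 8 sinusoidal endothelial markers summed to 1048, 591 and 1104, of which *Cdh5* made up 207, 299 and 81.5. Past 1.5-fold against day 0, 7 of the 8 endothelial markers were lower and 0 higher on BDL day 3. On BDL day 14, 2 were lower and 1 higher. All 8 stellate and mural markers were lower past 1.5-fold at both times after BDL, and all 8 hepatocyte and 6 Kupffer cell markers were on BDL day 14. In bulk samples, fewer cells of a type and less RNA per cell cannot be told apart, and the part of these cell types in the results on the members was not tested.

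Upstream sequence is shown for 4 of the 5 members whose libraries could not overlap between groups. The limits used, with the shares of all genes kept, are given below. By the means and the highest library alone this held for *Hspa1b* only. The other 4 needed the geometric mean, a step added after the data were seen. The sequences allow the near-identical *Hspa1a* and *Hspa1b* to be compared and 1 motif of each to be seen in place. The fifth, *Nfkbiz*, is named only. The bases run 5′ to 3′ on the strand of the gene, from 250 to 31 bases before the RefSeq start of transcription (GRCm38.p6). Capitals in *Hspa1a* (chr17:34972187-34972406, minus strand) and *Hspa1b* (chr17:34959269-34959488, minus strand) mark a heat shock element dyad, GAANNTTC or TTCNNGAA, and capitals in *Fosb* (chr7:19310076-19310295, minus strand) and *Klf2* (chr8:72318812-72319031, plus strand) mark a short cAMP response element (CRE), TGACG or CGTCA.
Hspa1a: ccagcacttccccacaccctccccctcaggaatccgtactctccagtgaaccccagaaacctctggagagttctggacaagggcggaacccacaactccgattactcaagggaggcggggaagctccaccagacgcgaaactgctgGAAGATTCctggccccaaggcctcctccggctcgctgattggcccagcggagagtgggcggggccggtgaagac
Hspa1b: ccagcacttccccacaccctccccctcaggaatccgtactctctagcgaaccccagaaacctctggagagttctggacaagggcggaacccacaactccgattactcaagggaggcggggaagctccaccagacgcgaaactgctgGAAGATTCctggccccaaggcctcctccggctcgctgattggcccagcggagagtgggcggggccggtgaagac
Fosb: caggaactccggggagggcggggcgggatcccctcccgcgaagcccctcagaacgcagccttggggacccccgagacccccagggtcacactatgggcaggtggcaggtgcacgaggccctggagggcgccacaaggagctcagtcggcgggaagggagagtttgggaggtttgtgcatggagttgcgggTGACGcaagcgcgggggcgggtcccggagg
Klf2: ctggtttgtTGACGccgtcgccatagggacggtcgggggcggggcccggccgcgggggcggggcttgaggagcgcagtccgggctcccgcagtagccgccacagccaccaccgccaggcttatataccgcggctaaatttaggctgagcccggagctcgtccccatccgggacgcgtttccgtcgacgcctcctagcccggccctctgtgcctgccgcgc

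*Hspa1a* and *Hspa1b* were 99.1% identical over these 220 bases and had the same dyad, 104 to 97 bases before the start. Counted from 1 at the 5′ end, with the *Hspa1a* base first, they differed by C44T and T47C. Promoters of 29 members matched a RefSeq entry by symbol. *Egr1*, *Egr3*, *Ier2*, *Nfkbiz*, *Hspa8* and *Hsp90aa1* are named only. Within 250 bases before the start and on both strands, the dyad was found in 4 of 6 heat shock members (*Hspa1a*, *Hspa1b*, *Hsph1* and *Hspe1*) and 2 of 23 immediate-early members (*Fosl2* and *Jun*), against 10.4% of 11723 promoters of genes in the table. The short CRE was found in 11 of 23 immediate-early members (47.8%), *Fos*, *Fosb*, *Junb*, *Atf3* and *Klf2* among them, against 25.4% of all promoters. A full CRE, TGACGTCA, which also contains the short one, was present in *Dusp1* and *Btg2* and in 2.51% of all promoters. An EGR site, GCGNGGGCG or CGCCCNCGC, was found in 11 of 23 immediate-early members (47.8%) and in 0 of 6 heat shock members, against 8.33% of all promoters. The AP-1 site, TGACTCA or TGAGTCA, was found in 0 of 29 members and in 3.40% of all promoters, and the CArG box was found in *Zfp36* and in 1.16% of all promoters. A match describes the letters of these windows only.

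To ask how the members differed before and after BDL, the group means were compared. Day 0 had the highest mean of the 3 groups for 29 of 33 members, against 38.5% of all genes kept, and the lowest mean for 0, against 35.5%. BDL day 3 had the highest mean for *Fosl2*, against 30.1% of all genes kept. BDL day 14 had it for *Egr2*, *Klf6* and *Socs3*, against 31.4%. The mean was lowest on BDL day 3 for 19 members (30.8% of all genes kept) and on BDL day 14 for 14 (33.65%). On BDL day 3, 23 of 33 members were lower than at day 0 past 1.5-fold, and 0 were higher. Among all genes kept, 29.2% were lower and 19.2% higher past that fold in the same comparison. The median log2 ratio of the members was -0.88, and that of all genes kept was -0.02. On BDL day 14, 19 members were lower and 2, *Egr2* and *Socs3*, were higher, against 28.8% lower and 21.2% higher among all genes kept, and the medians were -0.83 and -0.04. Both comparisons share the day 0 libraries, so the values of each are given side by side and were not counted together.

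**Figure D1:**
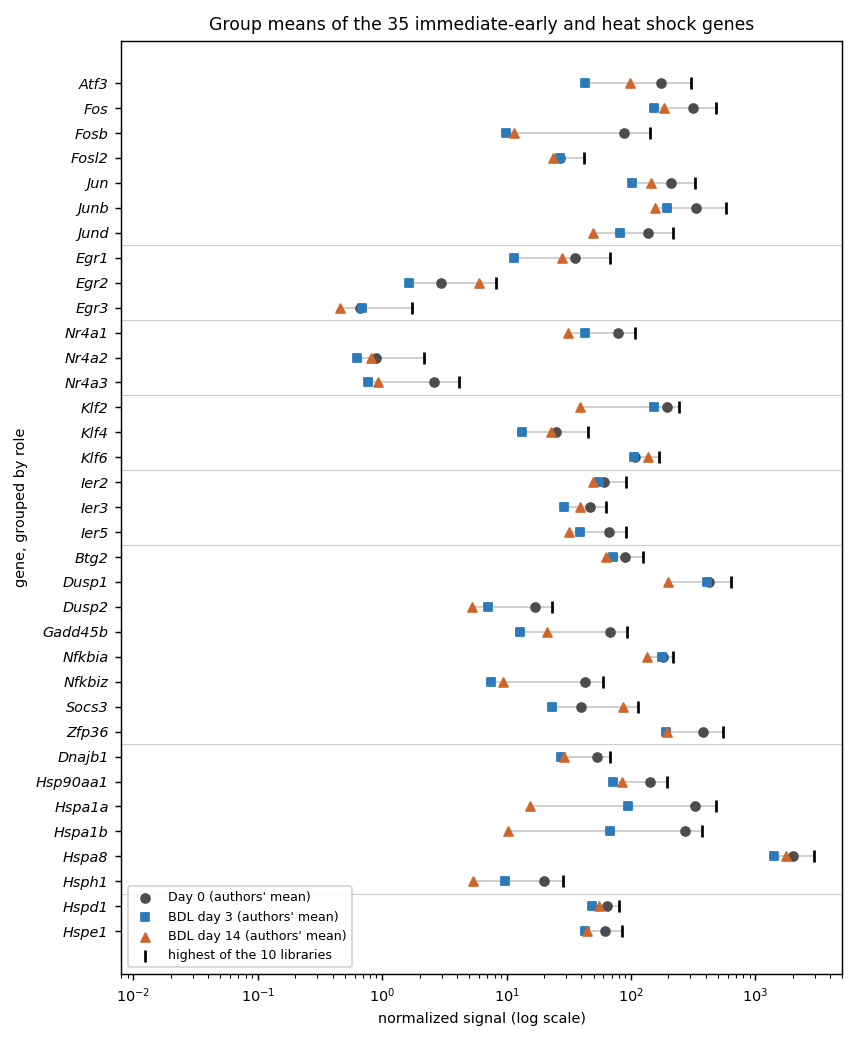
Authors' mean signal of each of the 35 members at day 0 (circles), BDL day 3 (squares) and BDL day 14 (triangles), on a log axis, with the highest of the 10 libraries as a vertical tick. Genes are grouped by role, and the circle is the rightmost of the 3 group symbols for most of them, with *Egr2*, *Klf6* and *Socs3* having the triangle on the right.

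The spread between libraries limited these calls. With the further condition that the difference exceed 2 implied SD, 10 of 33 members were lower on BDL day 3, against 10.9% of all genes kept. On BDL day 14, 9 of 33 were lower, against 12.0%. None of the 33 was higher in this way at either time, against 8.69% and 9.67% of all genes kept. On BDL day 3 these were *Fosb*, *Atf3*, *Egr1*, *Ier5*, *Nfkbiz*, *Gadd45b*, *Hspa1a*, *Hspa1b*, *Dnajb1* and *Hsp90aa1*. On BDL day 14 they were *Fosb*, *Klf2*, *Ier5*, *Dusp2*, *Nfkbiz*, *Gadd45b*, *Hspa1a*, *Hspa1b* and *Dnajb1*. This condition was added after the data were seen.

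**Figure D2:**
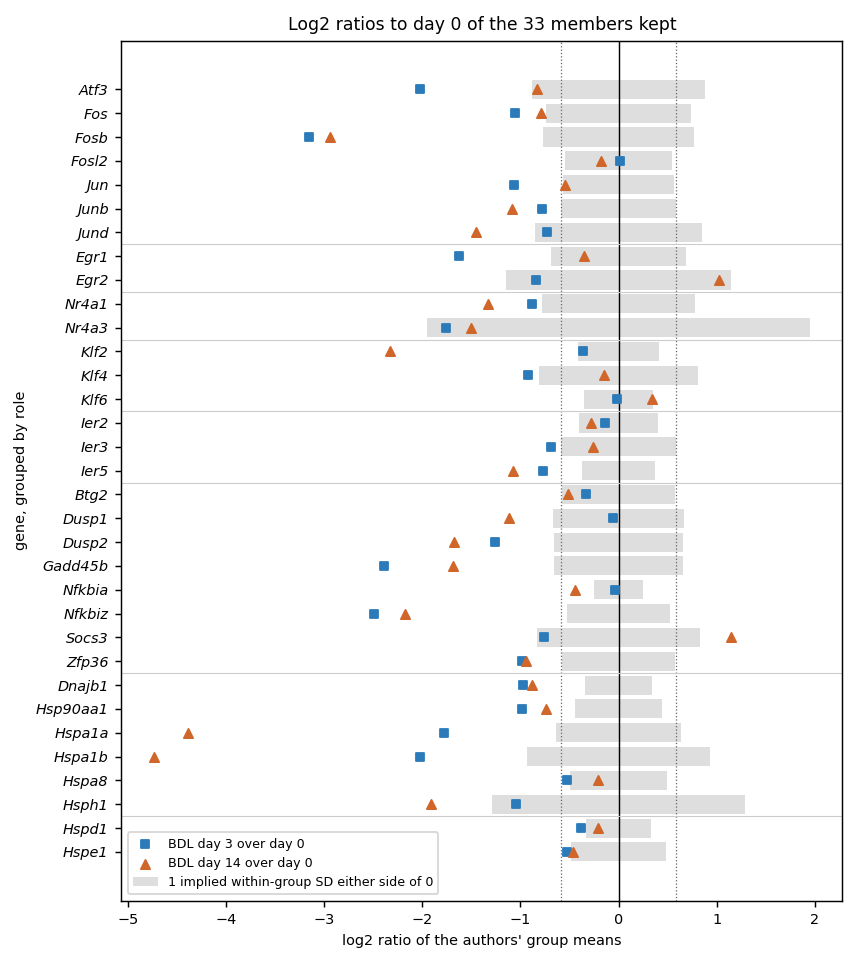
Log2 ratio of the authors' group means to day 0 on BDL day 3 (squares) and BDL day 14 (triangles) for the 33 members kept. Grey bars reach 1 implied within-group SD either side of 0, and dotted lines mark 1.5-fold. *Hspa1b* reached -4.73 and *Fosb* -3.16, far outside their bars, whereas *Egr2* and *Nr4a3* lay within theirs.

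The 7 AP-1 and ATF members encode the leucine zipper proteins that pair to form AP-1 and the stress-induced repressor ATF3. On BDL day 3, 6 of 7 were lower past the fold (median log2 ratio -1.06), and on BDL day 14 it was 5 of 7 (median -0.83). Of these 7, the largest difference was in *Fosb*, whose product is an AP-1 subunit. Its mean was 88.1 at day 0, 9.86 on BDL day 3 and 11.5 on BDL day 14, which are log2 ratios of -3.16 and -2.94 with an implied SD of 0.77. The highest *Fosb* library, at 142, could only be a day 0 library, and without it the ratios were -2.63 and -2.41. *Atf3* was at 174, 42.8 and 97.6. Its log2 ratio was -2.02 on BDL day 3, past 2 implied SD, and -0.83 on BDL day 14, under its implied SD of 0.88. Its highest library could also only be of day 0, and without it the ratios were -1.36 and -0.17, both under 2 implied SD.

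*Fos*, the partner of JUN in AP-1, was at 316, 152 and 183 (log2 ratios -1.06 and -0.79, implied SD 0.74). *Jun* was at 211, 101 and 145, and *Junb* at 334, 194 and 157. *Jund*, which is present in many resting cells, was at 136, 81.9 and 49.7. These 4 genes were all highest at day 0, but none of their differences reached 2 implied SD. *Jun* missed the fold on BDL day 14, with a log2 ratio of -0.54. *Fosl2*, another AP-1 subunit, was at 26.8, 27.0 and 23.6 and passed the fold at neither time. *Junb* overlaps *Prdx2* on the other strand (184, 212 and 140). The strand used in counting is not given in the sources used here, so reads of the pair may not have been told apart.

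Of the EGR zinc finger factors, which are induced by growth factor signalling, *Egr1* was at 35.5, 11.5 and 27.8. Its log2 ratio to day 0 was -1.63 on BDL day 3, more than 2 times its implied SD of 0.69, and -0.35 on BDL day 14. Without its highest library, which could only be of day 0, the BDL day 3 ratio was -0.75. *Egr2* was at 2.96, 1.65 and 6.00. Its log2 ratio on BDL day 3 was -0.84, which quantile normalization turned to 0.13, and it was higher on BDL day 14 than at day 0 with a log2 ratio of 1.02. That difference was smaller than its implied SD of 1.15. Its highest library was at 8.20 and could only be a BDL day 14 library, so the other BDL day 14 libraries averaged 5.27. The NR4A genes encode orphan nuclear receptors. *Nr4a1* was at 78.4, 42.6 and 31.1 (log2 ratios -0.88 and -1.33, implied SD 0.78), and *Nr4a3* was low in every group, at 2.61, 0.77 and 0.92, with an implied SD of 1.95 that exceeded both of its ratios.

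The 3 KLF zinc finger factors differed from one another. *Klf2*, known for its induction by shear stress in endothelium and for restraining myeloid activation, was at 195, 152 and 38.8. Its log2 ratio to day 0 was -0.36 on BDL day 3 and -2.33 on BDL day 14, with an implied SD of 0.41, and that of BDL day 14 to BDL day 3 was -1.97. *Klf2* was thus within its implied SD of day 0 on BDL day 3 and well below it on BDL day 14. The sum of the Kupffer cell markers was also lowest on BDL day 14, at 1341, though it was highest on BDL day 3, and that of the endothelial markers was 1104 there, and their part in the *Klf2* values was not tested. *Klf4* was at 25.1, 13.2 and 22.7, lower past the fold on BDL day 3 alone. *Klf6*, at 107, 106 and 136, passed the fold at neither time.

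Of the 3 IER genes, *Ier5* was lower at both times, at 66.5, 38.9 and 31.6, and its log2 ratios of -0.77 and -1.07 both exceeded 2 times the implied SD of 0.37. *Ier5* encodes a protein that is known to act on HSF1. *Ier3* was at 46.7, 28.9 and 38.9, and *Ier2* at 60.4, 55.0 and 49.8. *Ier3* passed the fold on BDL day 3 with a log2 ratio of -0.69, and *Ier2* did so at neither time.

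The 8 feedback members encode proteins that limit or shape early responses. On BDL day 3, 5 of 8 were lower past the fold (median log2 ratio -0.87), and on BDL day 14 5 were lower and 1 was higher (median -1.03). *Nfkbiz* encodes a nuclear IκB protein needed for some secondary NF-κB targets. It was at 42.4, 7.54 and 9.39, with log2 ratios of -2.49 and -2.17 and an implied SD of 0.52. *Gadd45b*, a stress sensor acting on p38 and JNK signalling, was at 67.8, 12.9 and 21.0 (log2 ratios -2.39 and -1.69, implied SD 0.65). Both were low at each time after BDL.

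The phosphatase gene *Dusp2* was at 17.0, 7.12 and 5.31 (log2 ratios -1.26 and -1.68, implied SD 0.66). *Dusp1*, which encodes the phosphatase that inactivates p38 and JNK, was at 426 at day 0, 410 on BDL day 3 and 197 on BDL day 14. Its log2 ratio was -0.06 on BDL day 3 and -1.11 on BDL day 14, under 2 times its implied SD of 0.67. *Dusp1* overlaps *Ergic1* on the other strand (29.2, 70.4 and 43.6). *Zfp36*, whose product speeds the decay of AU-rich mRNAs, was at 377, 191 and 196 (log2 ratios -0.98 and -0.94, implied SD 0.57).

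*Btg2*, an antiproliferative gene, was at 89.5, 71.3 and 62.6, and *Nfkbia*, the inhibitor of NF-κB, at 182, 177 and 134. Neither passed the fold. *Nfkbia* had the smallest implied SD among the members, 0.25. *Socs3*, the inhibitor of IL-6 and STAT3 signalling, had another order, at 39.4, 23.3 and 87.0. Its log2 ratio to day 0 was -0.76 on BDL day 3 and 1.14 on BDL day 14, with an implied SD of 0.83, and that of BDL day 14 to BDL day 3 was 1.90, past 2 implied SD. The highest *Socs3* library, at 113, could only be a BDL day 14 library, and without it the log2 ratio to day 0 was 0.99.

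The 6 cytosolic heat shock members include the widest differences of the set. *Hspa1a* and *Hspa1b* encode closely related inducible HSP70 chaperones. *Hspa1a* was at 324 at day 0, 94.2 on BDL day 3 and 15.5 on BDL day 14, which was 3.44-fold lower on BDL day 3 and 20.9-fold lower on BDL day 14. *Hspa1b* was at 274, 67.4 and 10.3, 26.6-fold lower on BDL day 14. Their log2 ratios to day 0 were -1.78 and -4.39 for *Hspa1a* (implied SD 0.64) and -2.02 and -4.73 for *Hspa1b* (implied SD 0.94). Both were lower at each later time, and the log2 ratios of BDL day 14 to BDL day 3 were -2.60 and -2.71. The paper's list of top down-regulated genes on BDL day 14 against day 0, from these same data, also holds both. The coding sequences of the pair were 99.4% identical, with 11 differences over 1929 aligned bases, so the split of reads between them is uncertain and they are not separate evidence.

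*Hsph1*, an HSP110 nucleotide exchange factor for HSP70, was at 20.1, 9.73 and 5.33. Its log2 ratios were -1.05 and -1.91, under 2 times its implied SD of 1.29 in size. *Dnajb1*, the HSP40 partner of HSP70, was at 53.4, 27.2 and 29.0. Its ratios of -0.97 and -0.88 were smaller, yet both exceeded 2 times its implied SD of 0.34. *Hsp90aa1*, the inducible HSP90, was at 142, 71.9 and 85.1 (log2 ratios -0.98 and -0.74, implied SD 0.44). *Hspa8*, the constitutive HSP70, was at 2020, 1400 and 1750 and passed the fold at neither time. Its log2 ratio of -0.21 on BDL day 14 became 0.00 under quantile normalization.

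*Hspd1* and *Hspe1* encode the mitochondrial chaperonin HSP60 and its cofactor HSP10, and they lie head to head on chromosome 1. *Hspd1* was at 63.8, 48.9 and 55.2, and *Hspe1* at 61.8, 43.0 and 44.7. Both were highest at day 0, and neither passed the fold. By level per kb of exon, *Hspa8* was the most abundant member in every group, at 470 per kb at day 0, 326 on BDL day 3 and 407 on BDL day 14. *Hspa1a* had a level of 109 per kb at day 0, near *Zfp36* (109) and *Nfkbia* (113), and 5.22 on BDL day 14. All members together made up 0.66%, 0.44% and 0.51% of the summed signal, and without *Hspa8* 0.44%, 0.28% and 0.27%.

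Between BDL day 3 and BDL day 14, 6 of 33 members (18.2%) were higher on BDL day 14 and 6 (18.2%) were lower past the fold. These shares were near those of all genes kept, 21.2% higher and 19.7% lower. The median log2 ratio was 0.09, and that of all genes kept was 0.00. The 6 higher were *Atf3*, *Egr1*, *Egr2*, *Klf4*, *Socs3* and *Gadd45b*. The 6 lower were *Jund*, *Klf2*, *Dusp1*, *Hspa1a*, *Hspa1b* and *Hsph1*. Past 2 implied SD, 1 of 33 members, *Socs3*, was higher, against 7.60% of all genes kept. In the same way 3 of 33, *Klf2*, *Hspa1a* and *Hspa1b*, were lower, against 7.21%. *Gadd45b* was at 12.9 and 21.0, and *Atf3* at 42.8 and 97.6.

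How far the libraries of 2 groups could overlap follows from the means alone. With the mean of a group, its number of libraries and the highest library of all, no library can lie above or below certain limits. By these limits the libraries could not overlap for 0 members on BDL day 3 against day 0 (2.02% of all genes kept), for *Hspa1b* on BDL day 14 against day 0 (1.65%) and for 0 members on BDL day 14 against BDL day 3 (0.582%). Every *Hspa1b* library of day 0 was at 84.0 or more, and every one of BDL day 14 at 41.2 or less.

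The geometric mean narrows the limits, a step that was added after the data were seen. With it, 2 of 33 members, *Fosb* and *Nfkbiz*, could not overlap between BDL day 3 and day 0, against 4.46% of all genes kept. Between BDL day 14 and day 0, 4 of 33 could not overlap (*Klf2*, *Nfkbiz*, *Hspa1a* and *Hspa1b*), against 5.17%. Between BDL day 14 and BDL day 3, 2 of 33 could not (*Klf2* and *Hspa1a*), against 2.54%. Taken 1 library at a time, *Klf2* libraries could lie between 101 and 242 at day 0, between 61.4 and 242 on BDL day 3 and between 15.2 and 71.8 on BDL day 14. *Hspa1a* libraries could lie between 77.4 and 482 at day 0, between 22.5 and 194 on BDL day 3 and between 3.56 and 34.6 on BDL day 14. Some of these ranges overlap although the groups could not, because the geometric mean allows only a fixed total spread, so that the extremes of both groups cannot be reached together. Even full separation could not have reached a two-sided exact permutation p of 0.05 here, since the smallest is 0.10 for 3 against 3 libraries and 0.0571 for 3 against 4.

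**Figure D3:**
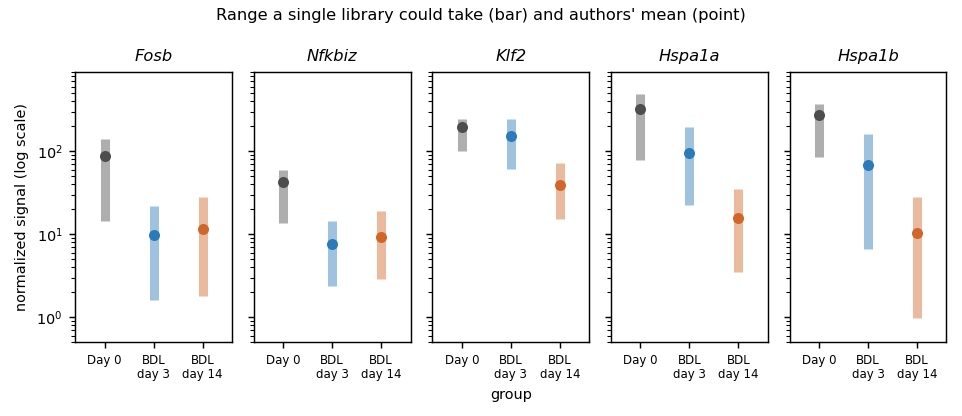
Range that a single library of each group could take (bars) and the authors' mean (points), as signal on a log axis, for the 5 members with groups that could not overlap. For all but *Hspa1b* this needed the geometric mean. The bars drawn use it for every member. The bars of *Hspa1b* at day 0 (84.0 to 369) and BDL day 14 (0.97 to 28.1) stand apart. At the same times so do those of *Hspa1a* (77.4 to 482 and 3.56 to 34.6) and *Klf2* (101 to 242 and 15.2 to 71.8). Some bars of groups that could not overlap still do (*Fosb* from 14.6 at day 0 and up to 22.0 on BDL day 3), since each bar allows its own group all of the spread.

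The highest library could be placed in 1 group for 7 of the 35 members from the group sums alone (*Fosb*, *Nr4a3*, *Dusp2*, *Nfkbiz*, *Gadd45b*, *Hspa1a* and *Hspa1b*, all at day 0), and for 21 with the geometric mean, a step added after the data were seen. For 19 of the 21 it could only be a day 0 library and for 2, *Egr2* and *Socs3*, a BDL day 14 library. Among all genes kept, it could be placed for 34.9%, and in 51.2% of these at day 0. In the 19 members it held 42.6% to 63.8% of the sum of its group. Whether it was the same library for different members is not known. For *Egr1* it was at 67.9, and without it the other day 0 libraries averaged 19.3 and the log2 ratio on BDL day 14 changed sign, from -0.35 to 0.53. For *Junb* it was at 583, and without it the ratios were -0.11 and -0.42.

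Without the highest library of each gene, 18 of 33 members were lower past the fold on BDL day 3 and 14 of 33 on BDL day 14. Under the same removal, 22.2% and 20.7% of all genes kept were lower. On BDL day 3 *Junb*, *Jund*, *Ier5*, *Klf4* and *Ier3* no longer passed the fold. For *Klf4* and *Ier3* the library was not placed, and it was taken out of day 0 as the higher group. On BDL day 14 *Fos*, *Junb*, *Atf3*, *Zfp36* and *Hsp90aa1* no longer passed it, and *Klf4* was then higher (log2 ratio 0.60). Taking out the highest value lowers any group it is in, so these values lean toward smaller differences. *Hspa1a* (-1.38 and -3.98), *Hspa1b* (-1.75 and -4.46), *Nfkbiz* (-2.16 and -1.85) and *Gadd45b* (-2.11 and -1.40) stayed far below day 0.

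**Figure D4:**
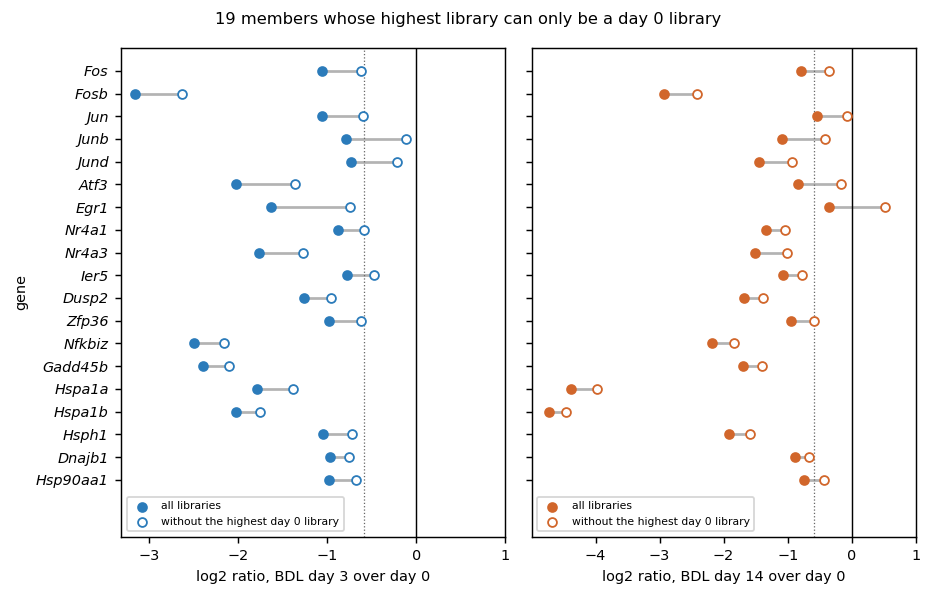
Log2 ratios to day 0 on BDL day 3 (left) and BDL day 14 (right) with all libraries (filled) and without the highest library (open), for the 19 members whose highest library can only be a day 0 library. Dotted lines mark 1.5-fold lower. *Egr1* crosses 0 on BDL day 14, and *Hspa1a* and *Hspa1b* remain the lowest there, at -3.98 and -4.46.

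The other genes of these pathways were described from lists of the same kind. Of 40 other early response genes kept, 15 were lower and 4 higher past the fold on BDL day 3, and 16 and 4 on BDL day 14, with median log2 ratios of -0.24 and -0.33. The shares lower were 37.5% and 40%, against 29.2% and 28.8% of all genes kept. The share higher was 10% at both times, against 19.2% and 21.2%. The lowest on BDL day 14 were the matricellular gene *Ccn1* (33.9, 19.8 and 4.12, log2 ratio -3.04), the EGFR inhibitor *Errfi1* (52.3, 17.6 and 10.8, -2.28) and *Gem* (2.99, 0.54 and 0.69, -2.12). *Gem* was low in every group, with an implied SD of 2.08. The highest were *Klf9* (24.1, 35.7 and 55.0, log2 ratio 1.19), *Sik1* (7.83, 9.62 and 17.8, 1.18) and the matricellular gene *Ccn2* (31.1, 7.21 and 62.5, 1.01). *Ccn1* and *Ccn2*, both known targets of YAP and SRF, thus lay at opposite ends on BDL day 14, and the implied SD of *Ccn2* was 1.30. The paper names these 2 genes *Cyr61* and *Ctgf*, and it reports that their expression was not detected by RNA-seq.

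Of 40 other chaperones and co-chaperones, 8 were lower and 1 higher past the fold on BDL day 3, and 10 and 7 on BDL day 14, with medians of 0.06 and 0.09. The shares lower, 20% and 25%, lay below the 29.2% and 28.8% of all genes kept. The shares higher, 2.5% and 17.5%, lay below 19.2% and 21.2%. The lowest on BDL day 14 were the small heat shock proteins *Hspb1* (16.4, 3.00 and 3.40, log2 ratio -2.27), *Hspb8* (10.3, 2.99 and 2.30, -2.16) and *Cryab* (17.4, 3.14 and 5.21, -1.74). The highest were the cytosolic chaperonin subunits *Cct5* (108, 159 and 207, log2 ratio 0.94) and *Tcp1* (81.7, 102 and 136, 0.74) and the ribosome-associated *Hspa14* (13.7, 25.5 and 22.1, 0.69). Of the 8 chaperonin subunits in the list, a grouping made after their values were seen, 5 were higher past the fold on BDL day 14 (median log2 ratio 0.61). Of 17 upstream regulators, 2 were lower and 4 higher on BDL day 3, and 1 and 4 on BDL day 14. This is 11.8% and 5.88% lower, and 23.5% higher at both times, against the same backgrounds. *Hsf1*, the factor that drives inducible heat shock genes, had the lowest ratio on BDL day 14 (16.9, 12.9 and 7.45, log2 ratio -1.18, over 2 times its implied SD of 0.48), followed by *Mrtfb* (-0.35) and *Hsf2* (-0.33). Among the highest were *Mapk8* (4.39, 11.6 and 11.2, log2 ratio 1.35) and *Stat3* (38.8, 51.9 and 64.7, log2 ratio 0.74).

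**Figure D5:**
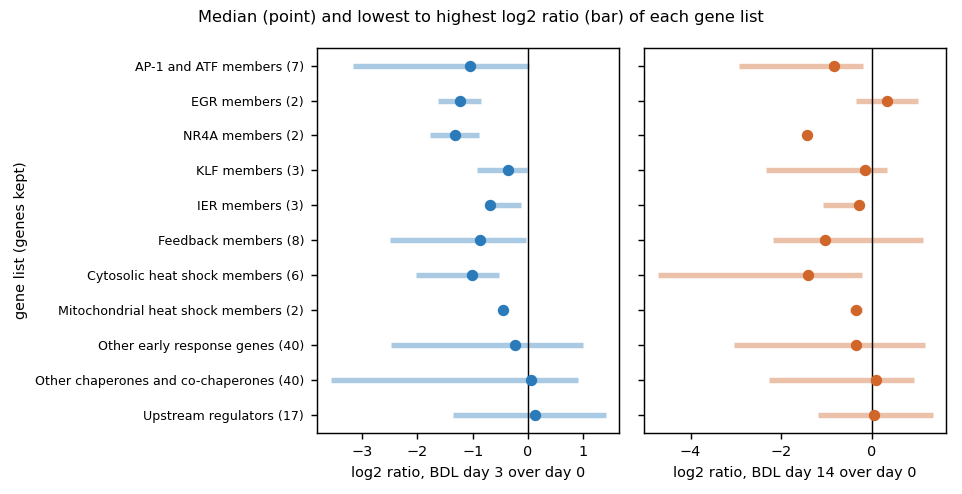
Median log2 ratio to day 0 (points) and lowest to highest value (bars) of the members by role and of 3 lists of related genes, on BDL day 3 (left) and BDL day 14 (right), with the number of genes kept in brackets. The AP-1 and ATF members (-1.06 and -0.83) and the cytosolic heat shock members (-1.01 and -1.40) have medians below 0, and those of the other chaperones (0.06 and 0.09) and upstream regulators (0.13 and 0.05) lie near 0.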

How the data were processed

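GFP(+) cells were sorted by FACS from livers at day 0, BDL day 3 and BDL day 14, and their mRNA was sequenced. Per the paper's methods, the authors used Partek Flow for quality trimming, STAR (2.6.1d in the submitters' processing notes, another version in the paper) for alignment to mm10, GENCODE for gene counts and upper quartile scaling for normalization. The deposited table holds signal values, the authors' mean of normalized counts per group, with the mean, the geometric mean and the highest library over all groups. It has 0 columns of values per library. The authors' p-values, FDR, ratios, fold changes and 95 percent limits of 3 comparisons were not used. Weighted by 3, 3 and 4 libraries, the group means gave back the overall mean within 0.469% at the 99th percentile of genes (next weights, 4.93%), so the table rests on 10 of the 12 libraries in the labels. Which 2 BDL day 14 libraries were left out is not given in the sources used here. The paper states that 2 BDL day 14 samples had too few reads left once trimmed and aligned. It also states that samples of day 0 and BDL day 3 were left out for poor RNA quality.

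Ratios of group means were taken for genes with a signal sum of at least 10, with no pseudocount, and called past 1.5-fold, the fold of the paper's methods. Of 2 repeated symbols, the first listing was used. The implied SD came from the gap between the weighted log group means and the log geometric mean. It and the limits on libraries were tested on simulated data. All 35 members are named. Of each related list the 3 highest and 3 lowest log2 ratios at BDL day 14 against day 0 are named, except 1 that is not reported here, and marker lists are given by their sums. The members and lists were chosen with earlier results of these data known. Exon lengths came from GENCODE and promoters from RefSeq, and all 35 coordinates in the table match GENCODE. Python 3.11, numpy 2.4.6, pandas 2.3.3, biopython 1.88 and matplotlib 3.10.9 were used. Alternatives were a fold of 2, no filter, a mean of at least 10, a pseudocount of 1, median-ratio scaling, quantile normalization, the highest library left out and limits widened by 5%.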

Additional observations from a re-analysis of the deposited data

How the results depend on the processing

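Counted over the alternatives that give a median, both lists and both times, 24 of 24 medians against day 0 were below 0. They ran from -1.06 to -0.35 for the immediate-early and from -1.20 to -0.55 for the heat shock members over both times. All of these medians rest on the same libraries, so they are not separate evidence. Under a fold of 2, the members called lower than at day 0 numbered 12 for the earlier BDL time and 14 for the later. With a mean of at least 10, 1 member was higher at BDL day 14 than at day 0. Shares of all genes under these settings are not given here, so these counts have no background to be set beside. Past 2 implied SD as well, 10 and 9 were lower at BDL day 3 and BDL day 14 against day 0, 0 were higher at BDL day 14, and 3 were lower and 1 higher at BDL day 14 against BDL day 3. With the geometric mean used for the limits, the members that could not overlap numbered 2 and 4 for BDL day 3 and BDL day 14 against day 0, and 2 for the later against the earlier BDL time. Both of these last steps were chosen after seeing the data, and by construction the SD condition can only lower a count and the geometric mean only raise it. Median-ratio scaling moved the median of all genes kept to -0.24 and -0.19 at BDL day 3 and BDL day 14, and quantile normalization to 0.11 and 0.10, and the ratio of *Fosl2* on BDL day 3 changed sign under both. Ratios of *Egr2*, *Egr3* and *Nr4a2* to day 0 changed sign under 1 of them, and that of *Hspa8* on BDL day 14 became 0.00 under quantile normalization. Leaving out each replicate in turn was not run, since the table has no values per library. No paired analysis was possible because the group means carry no replicate numbers. Depth per library is unknown, so counting error could not be given for low genes such as *Nr4a3*.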
